A study of Mus musculus with 8 samples.

Results

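Zfp64, the long noncoding RNA gene 1700017J07Rik and Gm38422 were followed allele by allele in single mouse blastocysts. They were found by their symbols, and all 3 were present among the 22810 genes of the counts. In the reverse cross, with a cast mother and a B6 father, Zfp64 was read almost wholly from the paternal allele, to 94.9% ± 5.9 (SD, n = 5). In the forward cross, with a B6 mother and a cast father, the paternal allele gave 58.0% ± 13.8 (SD, n = 3). All 53 reads of 1700017J07Rik and all 15 reads of Gm38422 were paternal, in both crosses.

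Imprinted genes are expressed from the allele of 1 parent. In most of the classical cases the allele is marked by DNA methylation inherited from a gamete. In early mouse embryos a further group, called noncanonical, is expressed from the paternal allele while the maternal allele carries H3K27me3 from the oocyte, a histone mark laid down by Polycomb proteins. Zfp64 encodes a zinc finger protein of the C2H2 type, known as a coactivator of Notch signalling and, in leukaemia cells, as an activator of the promoter of Kmt2a, the gene for a histone methyltransferase of the trithorax group. 1700017J07Rik is annotated as a long intergenic noncoding RNA, for which no function is given here.

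The embryos came from natural matings in both directions between C57BL/6 (B6) mice and mice of the subspecies castaneus (cast), and were lysed at embryonic day 3.5 without culture. The forward cross has 3 embryos, numbered 1, 2 and 3, and the reverse cross 5, numbered 1, 2, 3, 5 and 7. Each embryo was sequenced alone with the SMART-Seq2 protocol, which amplifies full-length cDNA. Reads over SNPs between the strains were counted per gene and strain, so that the B6 count is maternal in the forward and paternal in the reverse cross. Whether embryos of a cross came from the same litter is not given in the sources used here. With 1 mother strain per cross, a difference between crosses cannot be told apart from a difference between B6 and cast alleles or mothers.

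The embryos held between 1060063 and 1632695 SNP-spanning reads, of which 57.4% to 58.3% were B6. Markers of trophectoderm summed to 903 reads per 1000000 SNP-spanning reads of the embryo (CPM) in reverse embryo 1, which stood apart, and to between 3659 and 4976 CPM in the other 7 embryos. Markers of epiblast summed to between 496 and 953 CPM and those of primitive endoderm to between 173 and 328 CPM, with every marker detected in both crosses. Cumulus, oocyte and uterine epithelium markers summed to 9.39 to 21.9, 4.70 to 18.99 and 11.96 to 44.3 CPM. Macrophage markers differed between the crosses. In forward embryos 1, 2 and 3 they summed to 859.9, 40.8 and 60.3 CPM, with 99.9%, 100% and 87.0% of these reads maternal, and 7, 3 and 4 of the 8 markers detected. In the reverse embryos they summed to 1.88 to 7.55 CPM, with 2 to 5 of the 8 detected and C1qa and Ptprc at 0 in all 5.

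In GENCODE release M21 for GRCm38 (mm10), Zfp64 (ENSMUSG00000027551) spans chr2:168893331-168955587 on the minus strand. 1700017J07Rik (ENSMUSG00000086348) spans chr2:168978268-168978906 on the plus strand, with 2 exons. Both genes start at their facing ends, 22.7 kb apart, and point away from each other. RefSeq lists Gm38422 as a synonym of Zfp64, while the counts keep it as a gene of its own. Its earlier coordinates are not given in the annotation used here, so what separates its reads from those of Zfp64 is unknown. The counts are not split by strand here, so a read where genes overlap in opposite directions cannot be assigned with certainty.

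The 250 bases before the annotated start of each gene are shown as the sequence closest to the gene starts given above. They are from RefSeq for GRCm38.p6, each on the strand of its gene, and CG dinucleotides, where DNA methylation is placed, are in capitals. The Zfp64 stretch is chr2:168955588-168955837 on the minus strand, and the 1700017J07Rik stretch is chr2:168978019-168978268 on the plus strand.
Zfp64: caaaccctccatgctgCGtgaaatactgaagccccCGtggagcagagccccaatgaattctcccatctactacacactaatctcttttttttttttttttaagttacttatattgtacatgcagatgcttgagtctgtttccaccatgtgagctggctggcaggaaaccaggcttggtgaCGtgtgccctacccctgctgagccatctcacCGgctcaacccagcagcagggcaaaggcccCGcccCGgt
1700017J07Rik: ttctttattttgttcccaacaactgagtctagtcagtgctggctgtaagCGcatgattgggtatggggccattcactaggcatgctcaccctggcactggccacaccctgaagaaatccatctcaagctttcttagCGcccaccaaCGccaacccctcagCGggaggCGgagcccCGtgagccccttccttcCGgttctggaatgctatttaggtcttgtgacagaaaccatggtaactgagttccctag
They hold 6 and 7 CG dinucleotides. Of the 32851 RefSeq promoters of this length, 50.4% hold at least 6 and 46.3% at least 7, so neither stretch stands apart by its number of CGs. The Zfp64 stretch lies before its outermost annotated start, at 168955587. Other Zfp64 transcripts start at 168955289, 168955272, 168955266 and 168912633, and the bases directly before those starts were neither shown nor counted.

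The Zfp64 primers that the study designed for RT-PCR show which exons its allele assay reads.
Forward primer: gaaggacaagctgaagacgca
Reverse primer: cttgatgcggatgtgcgatt
The forward primer matched chr2:168935396-168935416, within coding sequence of exon 5 of 3 Zfp64 transcripts, which end at positions 168893331, 168925361 and 168934813. The reverse primer matched chr2:168926770-168926789, within coding sequence of exon 6 of the transcript ending at 168925361 alone, which gives a product of 370 bases. The counts used here are per gene and do not tell these transcripts apart. With RT-PCR and Sanger sequencing, the paper reports paternal expression of Zfp64 in further reciprocal crosses, independent of the embryos used here. From the embryos used here, the paper lists Zfp64 among previously published imprinted genes with skewed parental expression. For such genes it asked for an adjusted p of at most 0.1 with DESeq2 and the same direction in both crosses.

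In the forward cross, Zfp64 had 46 maternal and 119 paternal reads in embryo 1, 70 and 56 in embryo 2, and 48 and 65 in embryo 3. The paternal shares were 72.1%, 44.4% and 57.5%, with exact 95% binomial intervals of 64.6% to 78.8%, 35.6% to 53.6% and 47.9% to 66.8%. Both alleles were therefore read in every forward embryo, and embryo 2 had more maternal than paternal reads. In the reverse cross, the maternal and paternal reads were 7 and 73 in embryo 1, 23 and 145 in embryo 2, 0 and 62 in embryo 3, 1 and 134 in embryo 5, and 2 and 81 in embryo 7. The paternal shares were 91.2%, 86.3%, 100%, 99.3% and 97.6%. The intervals of the lowest and the highest of them were 80.2% to 91.1% and 94.2% to 100%. All reverse embryos lay above all forward embryos, as in 29.2% of autosomal genes with at least 5 reads in every embryo. The shares also varied within each cross, from 44.4% to 72.1% and from 86.3% to 100%. The reads are amplified and carry no molecular identifiers, so these intervals and limits cover counting error only.

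**Figure D1:**
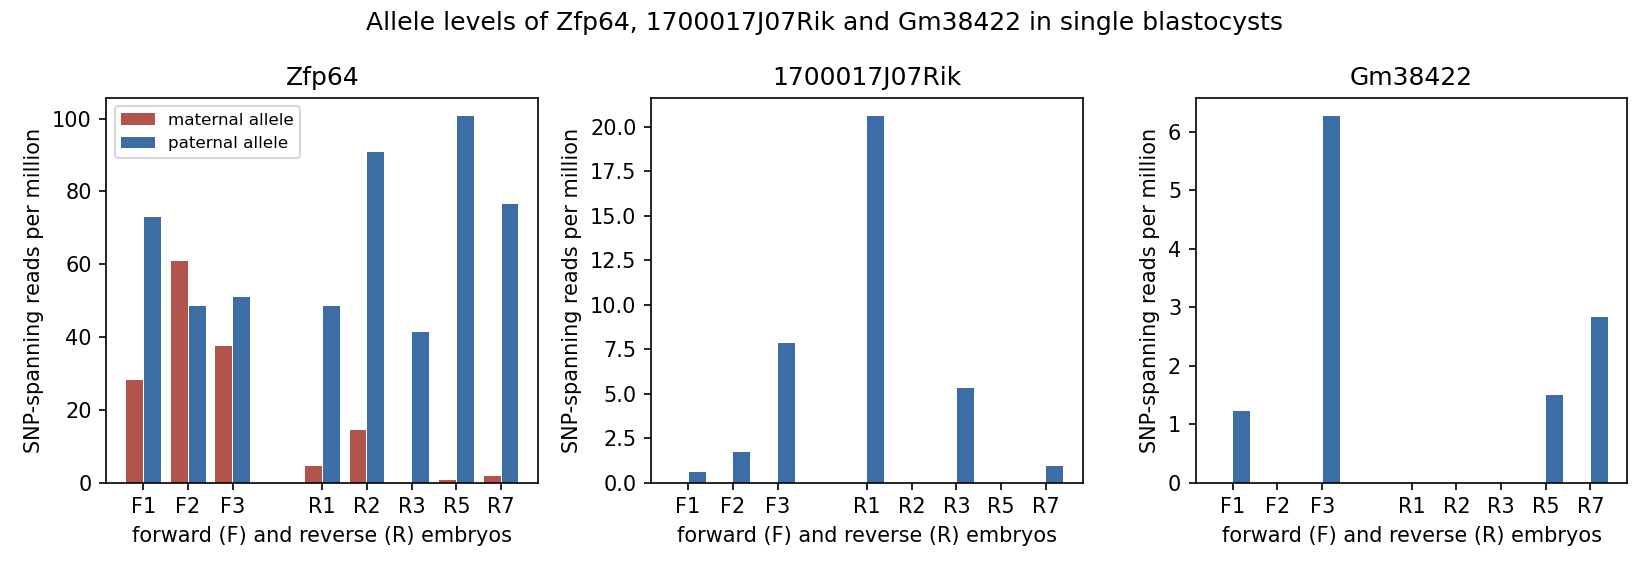
Maternal (red) and paternal (blue) levels in CPM (vertical axes, linear, from 0, a scale for each gene) for Zfp64, 1700017J07Rik and Gm38422 in forward embryos F1 to F3 and reverse embryos R1 to R7. Zfp64 has a maternal bar of 28.2 to 60.8 in every forward embryo and of at most 14.4 in the reverse embryos, and the other genes have no maternal bar.

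Paternal and maternal alleles were compared across all genes with edgeR's quasi-likelihood test, in a model with terms for parent and strain, p-values adjusted by the Benjamini-Hochberg method, and genes called at an adjusted p of at most 0.1. Of the 3 genes, Zfp64 and 1700017J07Rik reached the minimum of 10 reads in an allele library, and Gm38422, with at most 8, was not tested. Zfp64 was called, with a log2 ratio of the paternal over the maternal allele of 2.07 ± 0.53 (SE), a 95% interval of 0.98 to 3.16, an adjusted p of 0.0567, and more paternal reads in 7 of 8 embryos. Of the 12565 autosomal genes tested, 178 were called (1.42%), 139 of them toward the paternal allele (1.11%). A term for each embryo, which pairs its alleles, raised these calls to 391 (3.11%). It gave Zfp64 a log2 ratio of 2.34 with an adjusted p of 7.58e-05. Embryos were left out only in the fit without that term. There the call of Zfp64 did not hold without forward embryo 1, where the adjusted p was 0.267, or without forward embryo 3 (0.162). It was also lost without reverse embryo 5 (0.172) or 7 (0.171). An exact permutation test that swapped the parental labels within embryos, with both crosses weighted equally, put the mean paternal share 26.5 points above 50% (two-sided p = 0.0156, n = 8 embryos).

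The difference between the crosses was tested through the strain term of the same fit, which carries it on the log2 scale of cast over B6. For Zfp64 it was -1.27 ± 0.52 (SE), with a 95% interval of -2.34 to -0.20 and an adjusted p of 0.126, so the gene was not called. With a term for each embryo it was -1.52 with an adjusted p of 0.00192, a call. Calls of this kind were common: 1933 of 12565 genes (15.4%) were called without the embryo term, 1371 of them toward B6 (10.9%), and 3208 (25.5%) with it. Per embryo, the mean paternal share was 36.9 points higher in the reverse cross (exact permutation test, two-sided p = 0.0357, the smallest that 56 arrangements of 3 and 5 embryos can give). Of 8407 autosomal genes with at least 5 reads in every embryo, 2451 (29.2%) also had all forward shares below all reverse shares. More paternal reads in at least 7 embryos were seen in 4.85% of these genes. The median gene was read to 44.1% from the paternal allele in the forward and to 56.4% in the reverse cross, and 1208 of the 8407 genes, Zfp64 included, differed between crosses by 36.9 points or more in this direction.

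The maternal allele of Zfp64 differed between the crosses. It gave 28.2, 60.8 and 37.6 CPM in forward embryos 1, 2 and 3, where it is B6. It gave 4.65, 14.4, 0, 0.75 and 1.89 CPM in reverse embryos 1, 2, 3, 5 and 7, where it is cast. The ranges did not overlap. How many other genes separate in their maternal CPM was not counted, while 29.2% of the 8407 genes above separated by paternal share. The fits scale each allele library to its own size, while CPM is per reads of both alleles, so the 2 scales differ. A model with a term for the cross gave the maternal allele a log2 difference, reverse over forward, of -2.86 ± 0.63 (SE). Its adjusted p was 0.00523 and its 95% interval -4.16 to -1.55. Of 12565 genes, 11.5% were called for this contrast and 8.1% in this direction.

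The paternal allele gave 72.9, 48.6 and 50.9 CPM in the forward embryos, where it is cast, and 48.5, 90.7, 41.4, 100.6 and 76.4 CPM in the reverse embryos, where it is B6. These ranges overlapped, with means of 57.5 ± 13.4 (SD, n = 3) and 71.5 ± 25.9 (SD, n = 5) CPM. The fitted log2 difference, reverse over forward, was -0.01 ± 0.58 (SE), with each allele library scaled to its own size, unlike the CPM. Its 95% interval was -1.20 to 1.18 and its adjusted p 1.0. Differences up to these bounds lie within the interval, and 9.65% of genes were called for this contrast. Reads of the cast allele of Zfp64 were thus counted in all embryos where it was paternal. Within the crosses, the log2 ratio of paternal over maternal was 3.62 ± 0.59 (SE) in the reverse cross, with an adjusted p of 1.69e-04 beside 16.1% of genes called, 11.4% toward the paternal allele, and 0.77 ± 0.65 (SE) in the forward cross, with an adjusted p of 0.701, beside 5.56% of genes called, 1.61% toward the paternal allele. The interval in the forward cross was -0.58 to 2.13.

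The macrophage markers, higher and mostly maternal in the forward embryos, moved with the maternal reads of Zfp64 between crosses, and their part in this difference was not tested. Forward embryo 1, whose macrophage markers summed to 859.9 CPM, had the lowest maternal level of Zfp64 in its cross, 28.2 CPM, and forward embryo 2, at 40.8 CPM of macrophage markers, had the highest, 60.8 CPM. Without forward embryo 1 the difference of the maternal allele between crosses was -3.11, with an adjusted p of 0.0140, and the difference in paternal share was 43.9 points. Without reverse embryo 1, whose trophectoderm markers were low, the difference in paternal share was 37.8 points.

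The summed level of both alleles was 101.1, 109.4 and 88.5 CPM in the forward embryos and 53.2, 105.1, 41.4, 101.4 and 78.3 CPM in the reverse embryos. The log2 difference, reverse over forward, was -0.39 ± 0.34 (SE), with an adjusted p of 0.811 and a 95% interval of -1.12 to 0.34. Among 13078 genes tested for this level, 9 were called (0.0688%). In a whole embryo, fewer cells expressing a gene and less RNA per cell cannot be told apart.

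1700017J07Rik had 1, 2 and 10 paternal reads in forward embryos 1, 2 and 3. In reverse embryos 1, 2, 3, 5 and 7 it had 31, 0, 8, 0 and 1. No embryo had a maternal read. The 0 of 53 reads leave room for a maternal share of at most 5.66%. The paternal allele was at least 17.7-fold higher, taking 3 reads over all embryos as the floor. Reverse embryo 1 held 31 of these reads, and the 22 reads without it, an alternative chosen after seeing the data, leave room for up to 13.6%, with the paternal allele at least 7.33-fold higher. The reverse embryos alone (0 of 40 reads) allow up to 7.5% maternal reads, and up to 33.3% without reverse embryo 1. The RNA was read from a cast father in 3 of 3 embryos and from a B6 father in 3 of 5, and reverse embryo 1 alone held more reads than all others together. The fit across genes gave an adjusted p of 0.111, which is not a call, with the minimum of 10 reads reached by paternal libraries alone. With DESeq2 the adjusted p was 0.0655 and without the minimum 0.00136. The level of both alleles differed by 0.61 ± 1.41 (SE) on the log2 scale between crosses, reverse over forward, with an adjusted p of 0.953, and by -0.89 without reverse embryo 1. That embryo is also the one with low trophectoderm markers, whose part in the level of 1700017J07Rik was not tested.

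Gm38422 had 2, 0 and 8 paternal reads in forward embryos 1, 2 and 3. In reverse embryos 1, 2, 3, 5 and 7 it had 0, 0, 0, 2 and 3. Its 0 maternal of 15 reads leave room for a maternal share of at most 20%. The paternal allele was at least 5.0-fold higher over all embryos. Forward embryo 3 held 8 of these reads, and the 7 reads without it leave room for up to 42.9%, with the paternal allele at least 2.33-fold higher. In the forward cross, where Zfp64 had 164 maternal reads, Gm38422 had 0 of 10. Without the minimum of reads, a setting that called 406 genes against 178 with it, its parental difference had an adjusted p of 0.0801. This call rests on the same 15 reads. With its reads added to those of Zfp64, the difference of the paternal share between crosses was 35.8 points, against 36.9 without them.

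Within 500 kb of Zfp64 the counts hold 11 genes, and those with at least 10 reads are the 3 members, Nfatc2, Atp9a, Sall4 and Gm33622. Sall4, a zinc finger transcription factor of pluripotent cells that lies 125.4 kb beyond the end of Zfp64, was read from both alleles, with 987 maternal and 985 paternal reads in the forward embryos and 1138 and 1298 in the reverse embryos. Its log2 ratio of paternal over maternal was 0.07 ± 0.31 (SE), adjusted p 1.0. Atp9a, a phospholipid-transporting ATPase, gave 0.10 ± 0.33 (SE), adjusted p 1.0, with paternal shares of 53.8% and 51.4% in the forward and reverse cross.

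On the other side, beyond the start of Zfp64, no maternal reads were seen. Gm33622, a lncRNA gene 25.1 kb from that start, had 4 paternal reads in forward and 11 in reverse embryos, and was tested without a call (adjusted p 0.384). Gm39993, a lncRNA gene on the plus strand that starts 496 bases from the start of Zfp64, had 2 and 6 paternal reads and was named after its values were seen. Together with Gm38422, which RefSeq places at Zfp64 itself, Gm39993, 1700017J07Rik and Gm33622 had 29 paternal reads in forward embryos, 62 in reverse embryos, and 0 maternal reads. These 4 were put together because they had no maternal read, so the 0 was fixed by this choice. Of 5424 autosomal genes with 8 to 60 reads over all embryos, 271 (5.0%) had no maternal read. This share pools low and higher read numbers, and a 0 is more likely on fewer reads. It is therefore not a background for any single one of the 4 genes.

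Nfatc2, a transcription factor known from T cells, lies with its start 291.7 kb from the far end of Zfp64 and differed between crosses. It had 4, 13 and 15 maternal and 3, 9 and 9 paternal reads in forward embryos 1, 2 and 3. In reverse embryos 1, 2, 3, 5 and 7 it had 7, 2, 1, 1 and 6 paternal reads and 0 of 17 maternal, which allows a maternal share of up to 17.6%. As with Zfp64, the maternal allele was read in the forward cross, where it is B6. Its maternal allele differed between crosses at an adjusted p of 0.00603, beside 11.5% of genes called for this contrast. The minimum of 10 reads was reached by the maternal libraries of forward embryos 2 and 3 alone. The gene thus entered the fits through the group in which its maternal allele was high, so its calls between crosses are a description. Its parental difference had an adjusted p of 1.0. Its cross difference had an adjusted p of 0.535, and of 0.0929, a call, with a term for each embryo. The macrophage markers given above, also more abundant and maternal in the forward embryos, moved with these reads between crosses. Within the forward cross, embryo 1, at 859.9 CPM of these markers, had the fewest maternal reads of Nfatc2, 4. Embryos 2 and 3, at 40.8 and 60.3 CPM, had 13 and 15. The part of these markers was not tested.

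**Figure D2:**
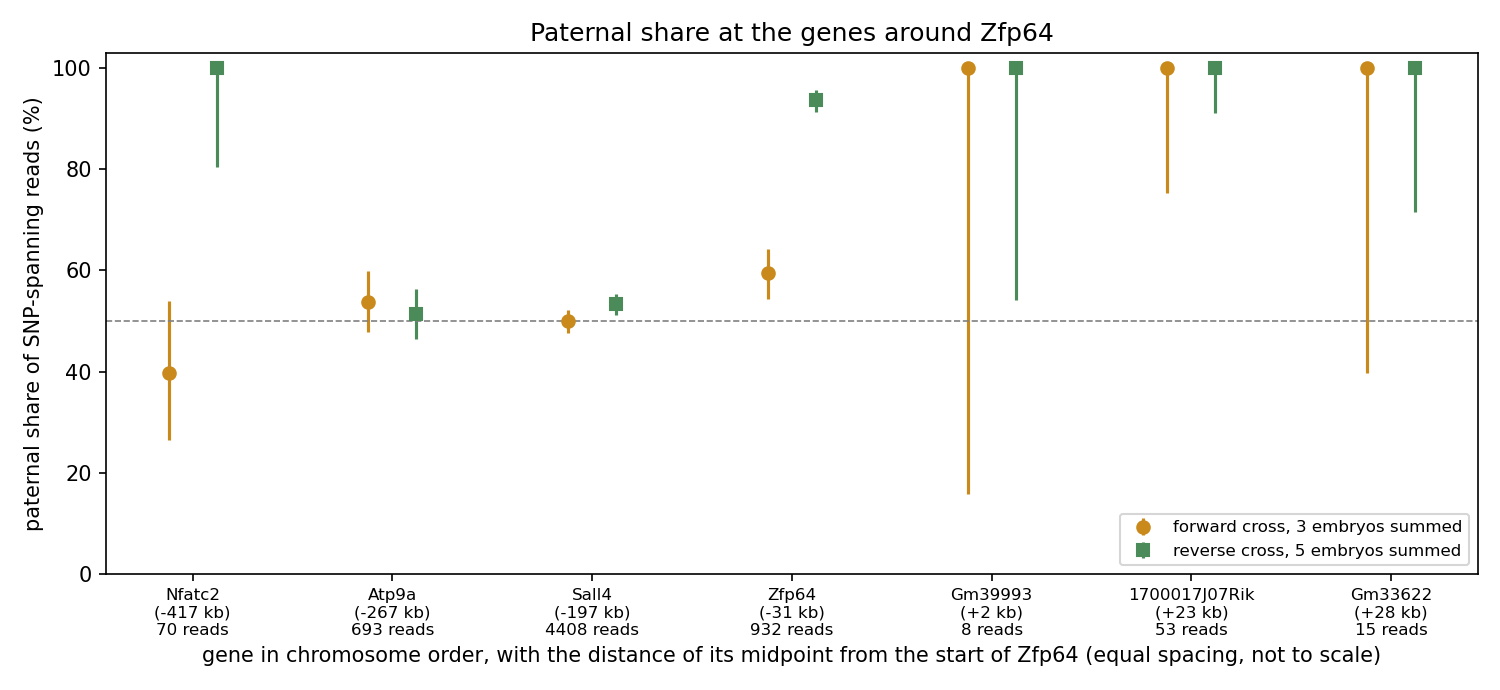
Paternal share of the SNP-spanning reads (vertical axis, %) of the genes within 500 kb of Zfp64 with at least 8 reads, Gm38422 left out. Genes are in chromosome order at equal spacing, forward embryos summed (circles) and reverse embryos summed (squares), with exact 95% binomial intervals. Sall4 and Atp9a lie near 50% in both crosses, Nfatc2 and Zfp64 lie apart between crosses, and the genes beyond the start of Zfp64 lie at 100% on few reads.

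The 10 noncanonically imprinted genes taken for comparison were Sfmbt2, Slc38a4, Slc38a1, Jade1, Gab1, Smoc1, Platr20, Otx2, Bbx and Epas1. All were called toward the paternal allele, with log2 ratios of 4.45 to 8.48, a median of 5.66 and adjusted p-values of at most 0.0120. The median of all genes tested was -0.01, and that of Zfp64, 2.07, was lower than that of each of the 10. Their paternal shares over summed embryos were 87.8% to 100% in the forward and 98.9% to 100% in the reverse cross, against 59.4% and 93.8% for Zfp64. None of the 10 was called for the cross difference without the embryo term, and 6 were with it, beside 15.4% and 25.5% of all genes tested. The maternal reads of the 10 genes made up 5.24%, 5.37% and 1.37% of their reads in forward embryos 1, 2 and 3, and 0.134% to 0.922% in the reverse embryos. Their maternal share was thus higher in the forward embryos too, and in each forward embryo it was below the maternal share of Zfp64. Whether Zfp64 and these genes differ in the cross difference was not tested.

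**Figure D3:**
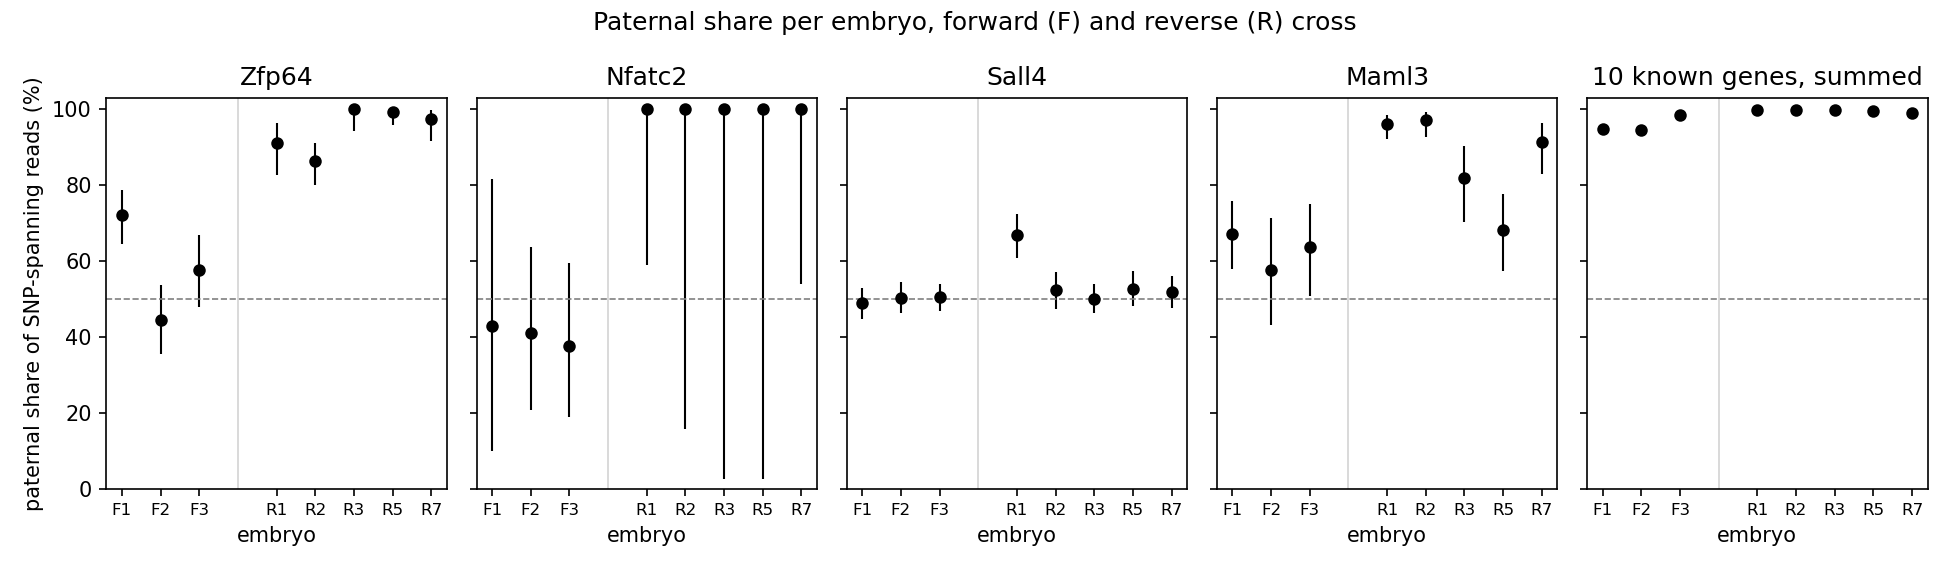
Paternal share of SNP-spanning reads (vertical axes, %) in each forward (F) and reverse (R) embryo for Zfp64, Nfatc2, Sall4 and Maml3, with exact 95% binomial intervals, and for the 10 noncanonically imprinted genes summed, without intervals. The dashed line marks 50%. The forward shares of Zfp64 lie at 44.4% to 72.1% and its reverse shares at 86.3% to 100%.

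Of the genes linked to the known roles of Zfp64, the Notch receptors, ligands and coactivators with Kmt2a, 13 of 18 were in the counts and 8 were tested. Of these 8, 1 was called toward the paternal allele and 0 toward the maternal, beside the 1.42% of all genes, and their median log2 ratio was 0.04. The gene called was Maml3, a coactivator of the Mastermind family that binds the Notch complex. It had 37 maternal and 76 paternal reads in forward embryo 1, 22 and 30 in embryo 2, and 24 and 42 in embryo 3. In reverse embryos 1, 2, 3, 5 and 7 its maternal reads were 7, 4, 12, 28 and 7 and its paternal reads 175, 134, 54, 60 and 74. All 8 embryos had more paternal reads. Shares of 57.7% to 67.3% in the forward cross lay below those of 68.2% to 97.1% in the reverse, a separation seen in 29.2% of genes. The log2 ratio was 1.88 ± 0.35 (SE), adjusted p 0.00396, and the cross difference was -0.75 ± 0.35 (SE), adjusted p 0.190, and -0.82 (adjusted p 0.0837, a call) once each embryo had its own term. Jag2, a Notch ligand, differed between crosses toward cast, by 2.52 ± 0.69 (SE) on the log2 scale (adjusted p 0.0183), beside 4.47% of all genes called in this direction. Among those not called, and named after their values were seen, Kmt2a had a log2 ratio of 0.26 ± 0.36 (SE) of paternal over maternal, and Rbpj, the DNA-binding factor of the Notch pathway, of -0.11 ± 0.36, both with an adjusted p of 1.0. None of the 8 was called for the level between crosses, beside 0.0688% of all genes.

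The genes whose paternal shares over the 8 embryos lay closest to those of Zfp64, among 7161 autosomal genes with at least 10 reads in every embryo, were Dap, Zfp871, Arhgap32, Ankrd33b and Ephx2. The root mean square differences of their shares from those of Zfp64 were 7.68, 7.95, 8.03, 8.55 and 10.1 points. Dap had shares of 55.3% to 61.8% in the forward and 80.1% to 97.3% in the reverse cross, and Arhgap32 of 38.5% to 58.1% and 99.1% to 100%. Of the 5, Dap (adjusted p 0.0732) and Arhgap32 (0.0865) were called toward the paternal allele, and Arhgap32 also for the cross difference (0.0388). With a term for each embryo, 5 of the 5 were called for both. They were chosen by the same shares, so these calls are a description. Without forward embryo 1 or without reverse embryo 7, 3 of these 5 stayed among the 5 nearest, and 4 or 5 did in the other alternatives. Dap and Ankrd33b lie 17.1 kb apart on chromosome 15.

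**Figure D4:**
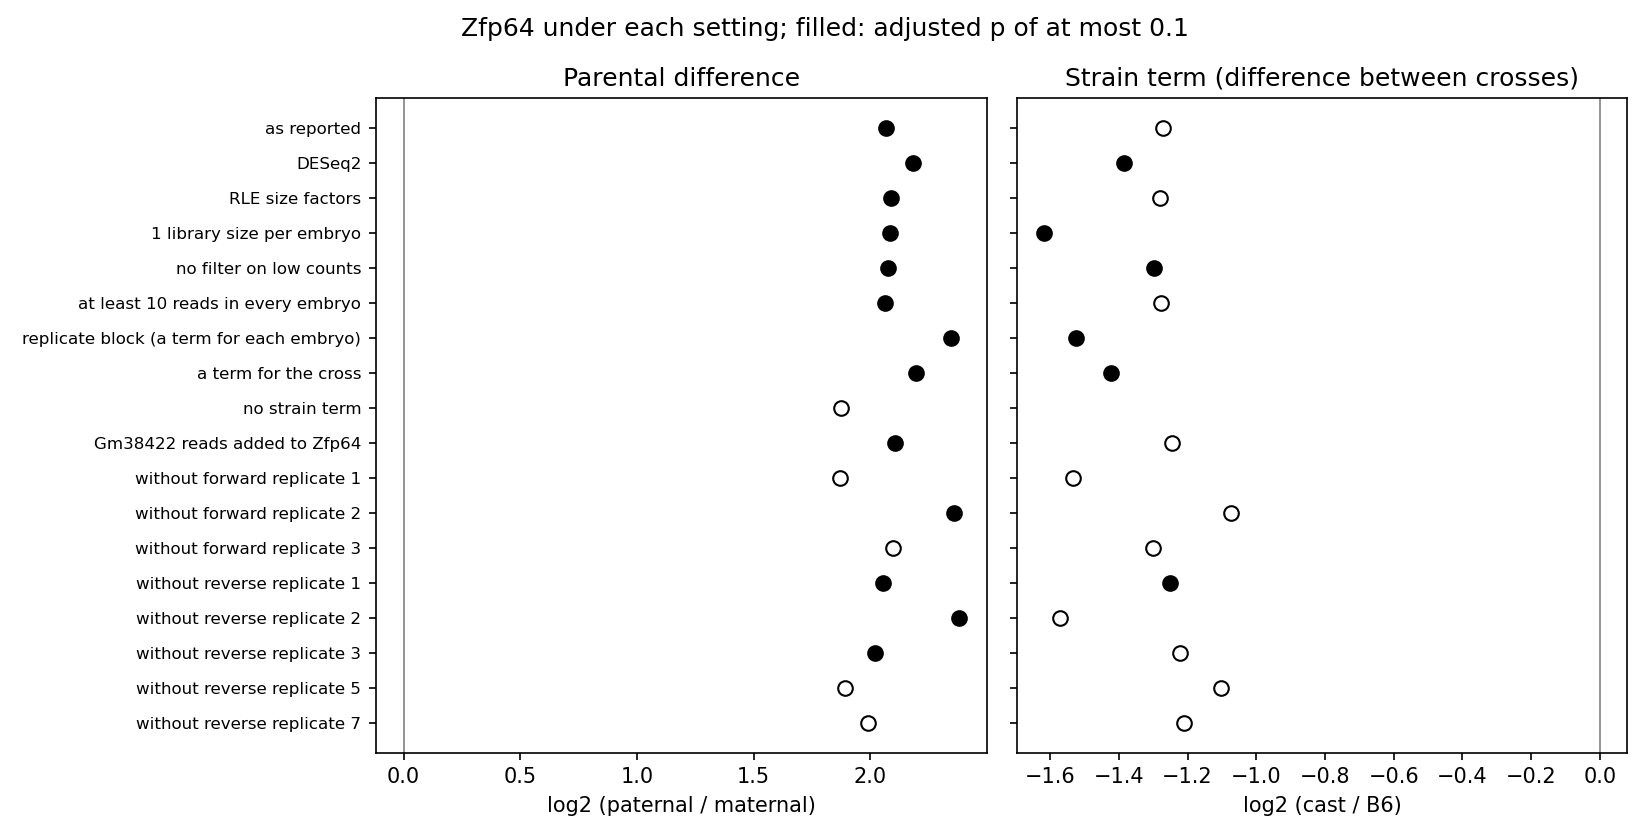
Log2 ratio of the paternal over the maternal allele (left) and the strain term, cast over B6, that carries the difference between crosses (right) of Zfp64 under each setting that used both crosses, filled where the adjusted p was at most 0.1. All points of the left panel lie between 1.87 and 2.38 and all of the right panel between -1.62 and -1.07, and the fill changes between settings.

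Over the reported fit and the alternatives that used both crosses, the log2 ratio of paternal over maternal Zfp64 lay between 1.87 and 2.38 and was called in 13 of 18 settings. Within single crosses, as given above, it was 0.77 in the forward and 3.62 in the reverse embryos. The cross difference lay between -1.62 and -1.07 and was called in 6 of 17. The direction of both was thus the same in each of these settings, while the calls were not.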

How the data were processed

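RNA of 8 single blastocysts was measured. The authors aligned reads to mm10 with STAR (2.5.2b in the submitters' processing notes), excluded reads with several locations, kept those over annotated SNPs and took an intermediate result of Allelome.Pro. The deposited values are raw counts of such reads for each gene in each embryo, split by strain, without normalization. Use of strand and the gene annotation are not given in the sources used here, and the authors removed 2 reverse embryos, numbers 4 and 6. Alignment to a B6 genome can favour B6 reads.

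Of 22810 genes, 18286 were matched by symbol in GENCODE M21, 2999 in RefSeq, 416 by a synonym and 1109 not. The 21056 autosomal genes entered the tests. Paternal and maternal alleles were compared with edgeR 4.0.16 (R 4.3.3, limma 3.58.1; quasi-likelihood test, TMM, terms for strain and parent, 16 allele libraries, at least 10 reads in at least 1 library, Benjamini-Hochberg adjustment, threshold 0.1), and levels with the same test on the 8 sums. Shares were compared by exact permutation tests. DESeq2 1.42.0 was an alternative. The edgeR fits of parent, strain and level and the DESeq2 fit of parent were checked on simulated data. There each library was drawn independently, without pairing of the alleles of an embryo. The permutation tests were not checked in this way. The 2 alleles of an embryo are a pair, being from the same animal: their deviations correlated with r of 0.0821 to 0.487, each best with its own.

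Named genes are the members, neighbours within 500 kb with at least 10 reads, the 5 genes of nearest shares, and called genes of the noncanonical and Notch lists. Gm39993, Kmt2a and Rbpj fall outside this rule. Members and lists were chosen with earlier results of these data known. P-values of the allele fits measure the spread between allele libraries. Without a term for each embryo, these fits take the alleles of an embryo as independent. P-values of the level measure the spread between embryos. The permutation tests rearrange embryos between crosses or parental labels within embryos.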

Additional observations from a re-analysis of the deposited data

Results flagged for a closer look

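The paternal share of Zfp64 was 36.9 percentage points higher in the reverse than in the forward cross, a difference between groups (exact permutation test, two-sided p = 0.0357, 3 and 5 embryos). All shares of the reverse cross, from 86.3% to 100%, lay above those of the forward cross, from 44.4% to 72.1%, beside 29.2% of genes with the same separation.

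1 reverse embryo lay far from the others in 1700017J07Rik. Its paternal level, which is also the level of both alleles, was 20.6 CPM in reverse embryo 1, and the gap to the next embryo was 0.741 of the range, above the critical ratio of 0.71 for 5 samples. The same embryo had trophectoderm markers at 903 CPM, against 3659 to 4976 CPM in the other 7, and their part was not tested. Of 8 groups of values looked at, these 2 were marked, and chance marks about 1 in 20. The 2 hold the same values, as the gene had no maternal reads, so they are 1 observation.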

How the results depend on the processing

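Without the strain term, Zfp64 had a log2 ratio of paternal over maternal of 1.87 (adjusted p 0.222), and within the forward and the reverse cross, comparisons added after seeing the data, 0.77 and 3.62. Leaving out each embryo gave 1.87 to 2.38, with the call lost when forward embryo 1 or 3, or reverse embryo 5 or 7, was left out. Its cross difference was called with DESeq2 (-1.39), 1 library size per embryo (-1.62), no minimum of reads (-1.30), the replicate block of a term for each embryo (-1.52), a term for the cross (-1.42) and without reverse embryo 1 (-1.25), and ranged from -1.57 to -1.07 over the embryos left out. Its share difference ranged from 30.1 to 43.9 points, at p-values of 0.0571 and 0.0952, the smallest that these designs allow. The maternal allele difference, added after seeing the data, ranged from -4.11 without reverse embryo 2 to -2.52 and stayed called. The adjusted p of 1700017J07Rik was 0.0655 with DESeq2, 0.00136 with no minimum and 0.0973 with a term for the cross. It was 0.0589 within the reverse cross and 0.122 to 0.499 over the embryos left out. The gene entered these fits through paternal libraries alone, so these values are a description. Its level difference ranged from -0.89, without reverse embryo 1, to 2.12. The causes were not tested.

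Genes called for the parental difference numbered 406 with no minimum, 75 with 10 reads in every embryo, which tests fewer genes, 391 with the replicate block, and 120 to 197 over the embryos left out. For the cross difference they numbered 1062, with 10 reads in every embryo, 3208 with the block, and 1205 (without forward embryo 1) to 2456. For the level they numbered 136 with DESeq2, 143 with no minimum, 21 with a replicate block of the embryo number, and 3 (without forward embryo 1) to 159 (without reverse embryo 1), with 53 without reverse embryo 3. Embryo numbers correlated across crosses with r of 0.126, 0.00168 and 0.103 and share only a number.
The block changed no call of Zfp64 other than that of the cross difference, and the level of Zfp64 was called under no setting. Low counts limit 1700017J07Rik, Gm38422 and their lncRNA neighbours: with 53, 15, 8 and 15 reads, a small maternal share would not be detectable.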
